A study of Mus musculus with 9 samples.

Results

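The genes described here encode enzymes that turn cholesterol into bile acids in the liver. Members were the rows whose gene symbol was 1 of 10 listed names (Cyp7a1, Cyp8b1, Cyp27a1, Cyp7b1, Cyp2c70, Cyp39a1, Akr1d1, Hsd3b7, Baat and Slc27a5), and all 10 were found among the 17154 genes held by both deposited tables. Liver RNA of male mice, labelled C57BL/6 and given as C57BL/6J in the study's methods and in the CT protocol, at an age of about 8 to 12 weeks, was sequenced in 3 groups of 3 libraries. CT mice received no treatment. MMI mice drank water with 0.1% methimazole, which stops the thyroid from making hormone, and with 1% sodium perchlorate, which keeps iodide out of the thyroid, over 20 days and became hypothyroid. MMI+T3 mice had the same drinking water and were then injected once a day, on 5 days, with 0.25 µg per g body weight of T3 (triiodothyronine, the form of the hormone that binds its receptors), and livers were taken 24 hours after the last dose. Effects of the drugs and of low thyroid hormone cannot be told apart in MMI mice, and CT libraries stood in a table of their own, so that a difference between tables and a difference from CT cannot be told apart either. The study's methods name no vehicle injection for MMI mice, so T3 and the injections as such cannot be told apart. The labels do not tie each library to its own mouse. Replicates differed by more than sampling noise, and the p-values measure this spread between libraries, which may be technical.

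Bile acids are made by a classic pathway, which starts with CYP7A1, and by an alternative pathway, in which CYP27A1 and CYP7B1 act in turn. CYP8B1 adds the hydroxyl group that makes cholic acid, and in mice CYP2C70 converts other bile acids to muricholic acids, so the balance of these enzymes bears on the composition of the bile acid pool. The sterol nucleus is processed by HSD3B7 and AKR1D1, and the finished acids are joined to taurine or glycine by SLC27A5 and BAAT. Thyroid hormone is long known to act on Cyp7a1 in rodents.

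Cyp8b1 and Cyp2c70 moved in opposite directions after T3, and the 250 bases before their RefSeq transcription starts are shown so that both can be compared. The sequences were taken from RefSeq (GRCm38.p6), which gave a promoter for 5 of the 10 members (Cyp8b1, Cyp27a1, Cyp2c70, Akr1d1 and Hsd3b7). Both read 5′ to 3′ towards the start site, on the minus strand of chr9:121916306-121916555 and chr19:40187287-40187536. Capitals mark matches to AGGTCA, the hexamer to which thyroid hormone receptors and other nuclear receptors bind, to CAAAGTCCA, a site of the type bound by the hepatocyte factor HNF4, and to the TATA box motif TATAAA.
Cyp8b1: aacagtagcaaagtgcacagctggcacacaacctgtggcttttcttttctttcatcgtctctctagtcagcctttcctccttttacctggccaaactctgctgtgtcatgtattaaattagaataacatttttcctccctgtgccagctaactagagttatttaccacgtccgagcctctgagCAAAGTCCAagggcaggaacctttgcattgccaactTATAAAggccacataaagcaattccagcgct
Cyp2c70: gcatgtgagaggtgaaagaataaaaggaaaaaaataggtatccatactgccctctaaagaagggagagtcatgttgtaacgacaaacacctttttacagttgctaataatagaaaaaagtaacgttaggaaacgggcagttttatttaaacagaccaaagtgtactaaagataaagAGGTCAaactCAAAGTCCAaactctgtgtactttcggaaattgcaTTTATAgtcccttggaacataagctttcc

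Counted from the RefSeq starts, the promoters shared a CAAAGTCCA match at nearly the same place. It lay 67 to 59 bases before the start in Cyp8b1 and 64 to 56 bases before it in Cyp2c70. This motif was found in 0.381% of the 27025 RefSeq promoters of the same length, searched on both strands. TATAAA was read on the plus strand of the Cyp8b1 sequence (31 to 26 bases before the start) and on the opposite strand of Cyp2c70, where it appears as TTTATA (29 to 24 bases before the start), and 13.0% of promoters held it. In the GENCODE M21 annotation Cyp2c70 starts further upstream, at 40187333, so this TTTATA and the bases after it lie inside the annotated gene. For Cyp8b1 the GENCODE start, 121916305, adjoins the window. The like places of the matches thus depend on the RefSeq start of Cyp2c70. AGGTCA lay 74 to 69 bases before the start of Cyp2c70, next to its CAAAGTCCA match. Of the 5 promoters, it was present in those of Cyp2c70 and Akr1d1, compared to 13.8% of all promoters. No exact match was found in the 5 promoters for a direct repeat of AGGTCA with a gap of 4 bases (0.0111% of all promoters) or of 1 base (0.037%), CAAGGTCA (1.31%), CAAGGCCA (1.98%), the HNF1 palindrome (0.0074%), TTATGTAA (0.862%), CACGTG (6.05%) or TTGCGCAA (0.17%), which says only that these letters are not in these windows. GC content was 44.8% in Cyp8b1 and 36.0% in Cyp2c70, compared to a median of 52.0% over all promoters.

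Library totals ran from 17256776 to 22599227 counts. Of these, the 10 genes together took 0.399% to 0.417% in CT libraries, only 0.288% to 0.355% in MMI libraries, and 0.569% to 0.592% after T3, and these ranges did not overlap. The smallest library, MMI replicate 3, also had the largest mitochondrial share (4.99% of counts, against 3.29% to 3.76% elsewhere). As a check of the labels, 3 genes that respond to thyroid hormone (Dio1, Thrsp and Me1) were all higher in MMI+T3 than in MMI and in CT by edgeR's test, and in MMI compared to CT Dio1 and Thrsp fell whereas Me1 did not pass (log2 fold change -0.31, edgeR adjusted p = 0.210). Means for Dio1 were 61.2 CPM (read counts normalised to the scaled size of each library) in CT livers, 3.91 CPM in MMI livers and 890.3 CPM after T3. The hepatocyte markers measured, 7 of 8 listed, summed to 48160 to 51200 CPM in CT livers, 36510 to 41970 in MMI and 31810 to 36500 in MMI+T3. Between MMI and MMI+T3 they moved in both directions, with a median log2 fold change of 0.08. Alb (from a mean of 20270 to 12150 CPM) and Ttr fell, Ahsg rose and 4 were not called, all with estimates above 0. In whole liver, fewer cells of a type and less RNA per cell cannot be told apart.

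**Figure D1:**
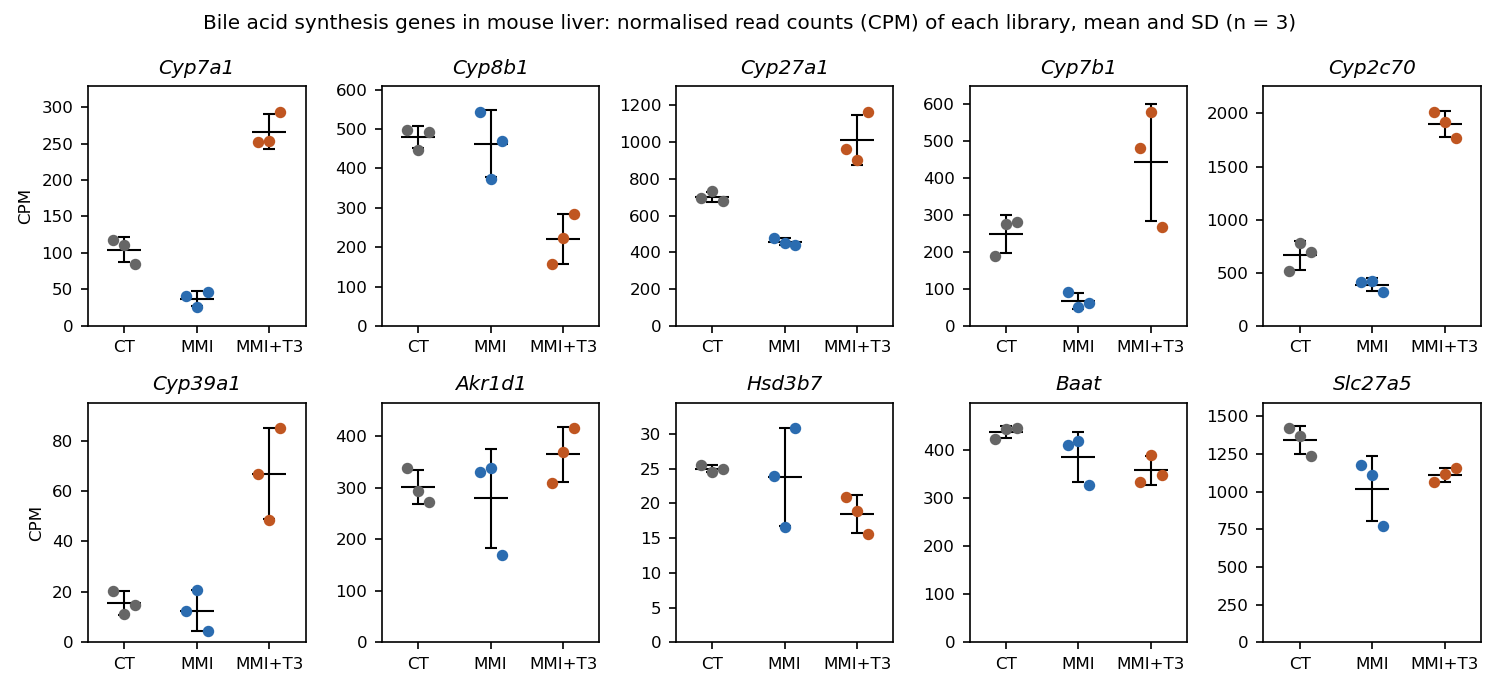
Normalised read counts (CPM, y axis, each panel on its own scale from 0) of the 10 bile acid synthesis genes in the 3 CT, 3 MMI and 3 MMI+T3 libraries; points are libraries and bars the mean and SD. Cyp7a1, Cyp27a1, Cyp7b1, Cyp2c70 and Cyp39a1 are highest in MMI+T3, where Cyp8b1 is lowest, between 157.0 and 284.6 CPM.

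Cyp7a1, the rate-limiting enzyme of the classic pathway, read at 117.9, 110.5 and 85.2 CPM in CT, 40.4, 25.7 and 45.9 CPM in MMI and 251.7, 253.7 and 293.6 CPM in MMI+T3. The 3 groups were fully separated, with MMI libraries lowest and MMI+T3 libraries highest. It rose 7.08-fold in MMI+T3 compared to MMI (log2 fold change 2.82, 95% interval 2.35 to 3.29, edgeR adjusted p = 9.29e-06). A change was called where the quasi-likelihood p of edgeR, adjusted over all genes tested by the Benjamini-Hochberg method, was under 0.05. MMI libraries were 2.79-fold below CT (log2 fold change -1.48, SE 0.21, edgeR adjusted p = 0.00204), and MMI+T3 exceeded CT 2.53-fold (log2 fold change 1.34, SE 0.13, edgeR adjusted p = 5.09e-05). These 3 calls held when any single library was left out. Cyp7a1 (ENSMUSG00000028240) lies on chromosome 4, 6265612 to 6275633, minus strand (GRCm38), with up to 6 exons in GENCODE M21.

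Cyp8b1, which directs synthesis towards cholic acid, read at 497.7, 446.5 and 493.2 CPM in CT, 544.1, 373.7 and 470.0 CPM in MMI and 157.0, 223.5 and 284.6 CPM in MMI+T3. Each MMI+T3 library was below every other library, whereas CT lay within the range of MMI. Cyp8b1 was 2.1-fold lower in MMI+T3 than in MMI (log2 fold change -1.07, SE 0.22, 95% interval -1.56 to -0.58, edgeR adjusted p = 0.00715). Compared to CT the log2 fold change in MMI+T3 was -1.12 (SE 0.18, edgeR adjusted p = 0.00121). Both calls held without any single library, and only the second passed a test against a minimum of 1.5-fold (first: edgeR adjusted p = 0.0867). Between MMI and CT the estimate was -0.04 (95% interval -0.37 to 0.29, edgeR adjusted p = 0.904), an interval that runs from 0.771 to 1.22 times the CT level. Among the 10 genes Cyp8b1 was the only one lower in MMI+T3 than in MMI past the threshold. The gene (ENSMUSG00000050445) is a single exon on chromosome 9, 121914356 to 121916305, minus strand.

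Cyp2c70, whose enzyme makes muricholic acids in mice, read at 514.0, 779.6 and 699.6 CPM in CT, 416.8, 426.6 and 316.2 CPM in MMI and 2016, 1917 and 1771 CPM in MMI+T3. The MMI+T3 libraries were far above all others and close to each other, with a coefficient of variation of 6.50%. In MMI+T3 the gene was 4.88-fold above MMI (log2 fold change 2.29, SE 0.17, edgeR adjusted p = 8.74e-06) and 2.84-fold above CT (log2 fold change 1.51, SE 0.15, edgeR adjusted p = 4.72e-05). From CT to MMI it fell 1.71-fold (log2 fold change -0.77, SE 0.18, edgeR adjusted p = 0.0295), a call that was lost without CT replicate 2, CT replicate 3 or MMI replicate 1 (edgeR adjusted p = 0.156, 0.114 and 0.0526). Cyp2c70 lies on chromosome 19, 40153353 to 40187333, minus strand, with up to 9 exons.

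Cyp27a1, the mitochondrial enzyme that opens the alternative pathway, read at 693.9, 732.1 and 681.1 CPM in CT, 477.9, 451.3 and 441.3 CPM in MMI and 963.6, 903.1 and 1165 CPM in MMI+T3. The groups did not overlap and stood in the same order as for Cyp7a1, over a narrower range. MMI+T3 was 2.19-fold above MMI (log2 fold change 1.13, SE 0.15, edgeR adjusted p = 0.000453) and 1.43-fold above CT (log2 fold change 0.51, SE 0.11, edgeR adjusted p = 0.00736). The change from CT to MMI was -0.61 log2 units (SE 0.12, edgeR adjusted p = 0.0119), and it was not called without CT replicate 2 (edgeR adjusted p = 0.0908) or CT replicate 3 (edgeR adjusted p = 0.0624). Cyp27a1 occupies chromosome 1, 74713574 to 74737892, plus strand.

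Cyp7b1, the next hydroxylase of the alternative pathway, read at 189.8, 275.0 and 281.7 CPM in CT, 92.0, 50.7 and 62.2 CPM in MMI and 479.9, 579.0 and 268.6 CPM in MMI+T3. All MMI libraries were below the others, whereas MMI+T3 replicate 3 fell among the CT libraries. It rose 6.42-fold after T3 (log2 fold change 2.68, SE 0.30, edgeR adjusted p = 0.000126) and was 3.62-fold lower in MMI compared to CT (log2 fold change -1.86, SE 0.22, edgeR adjusted p = 0.000791), and both calls held without any single library. MMI+T3 exceeded CT by 0.82 log2 units (SE 0.25, edgeR adjusted p = 0.0333), which DESeq2 did not call (adjusted p = 0.0631) and which edgeR called in 1 of 6 fits that each left out a library, the one without MMI+T3 replicate 3. Cyp7b1 is higher in males than in females in mouse liver. Of 15 other male-biased genes, which summed to 16290 to 19760 CPM in CT, 4737 to 6873 in MMI and 9541 to 15550 in MMI+T3, 9 fell in MMI compared to CT, where 2.8% of all genes tested fell. In MMI+T3 compared to MMI, Mup7, Serpina1e, Nudt7 and Selenbp2 rose, Cyp4a12b, Cyp4a12a and Cyp2u1 fell and 8 were not called (all genes: 9.83% rose and 7.18% fell). Mup7 (17.0 to 2360 CPM) and Serpina1e (623.1 to 4710 CPM) carried most of the rise of the sum. The Mup, Serpina1 and Cyp4a12 genes have near-identical copies, so their counts are uncertain. These genes were named after their values were seen. The part of male-biased expression in the values of Cyp7b1 was not tested. Cyp7b1 spans chromosome 3, 18071950 to 18243338, minus strand, in 6 exons.

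Cyp39a1, which hydroxylates 24-hydroxycholesterol, was the least abundant of the P450 genes and read at 20.5, 11.5 and 14.8 CPM in CT, 12.4, 20.9 and 4.51 CPM in MMI and 66.9, 48.7 and 84.9 CPM in MMI+T3. The MMI+T3 libraries lay above all others, and the MMI libraries spread widely, with a coefficient of variation of 64.9% and a lowest count of 85 reads in MMI replicate 3. MMI+T3 was 5.24-fold above MMI (log2 fold change 2.39, SE 0.41, edgeR adjusted p = 0.00248) and 4.23-fold above CT (log2 fold change 2.08, SE 0.23, edgeR adjusted p = 0.000125). These calls held without any single library. MMI against CT gave -0.29 (95% interval -1.21 to 0.62, edgeR adjusted p = 0.753), and the sign turned without MMI replicate 3, to 0.10. Its position is chromosome 17, 43667425 to 43751431, plus strand.

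**Figure D2:**
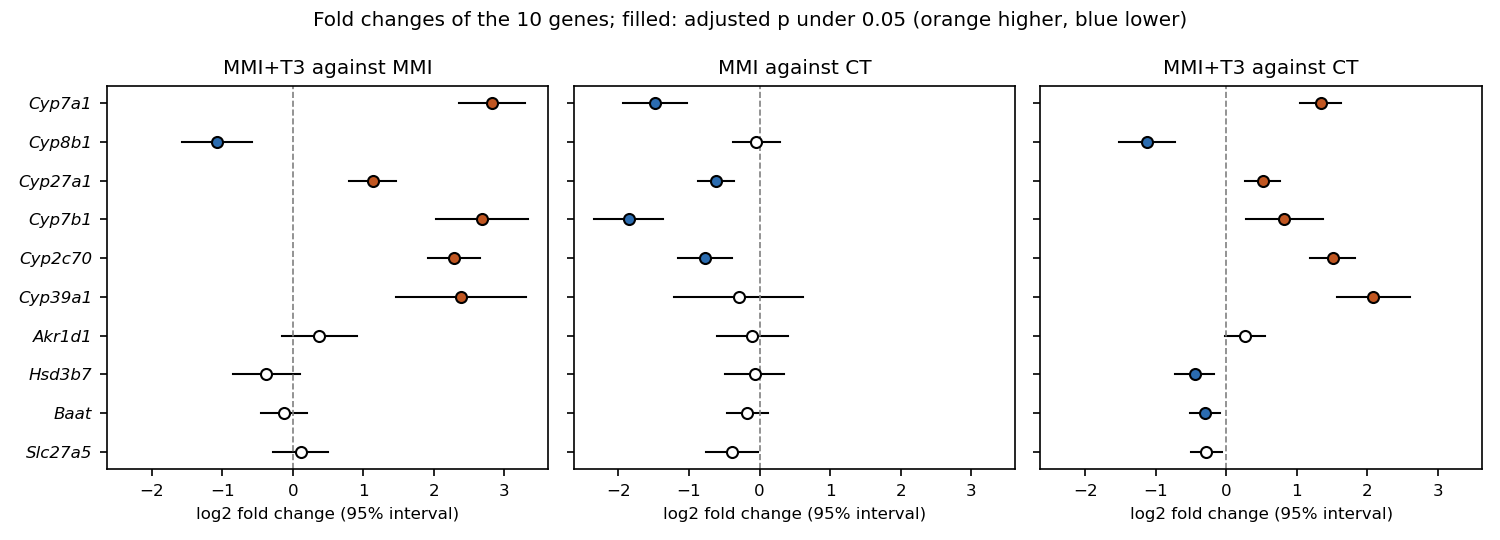
Log2 fold change (x axis) and 95% interval of each of the 10 genes (rows) in MMI+T3 against MMI, MMI against CT and MMI+T3 against CT; filled points passed edgeR's test at an adjusted p under 0.05, orange higher and blue lower, and open points did not. In the first panel the 5 orange P450 genes lie between 1.13 and 2.82 and Cyp8b1 alone is blue at -1.07, whereas the 4 non-P450 genes have intervals that include 0.

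The 4 genes outside the P450 family had log2 fold changes between -0.38 and 0.37 in MMI+T3 against MMI, and none was called there. Akr1d1, the reductase that saturates the sterol ring, read at 338.4, 292.9 and 272.8 CPM in CT, 329.8, 338.9 and 169.1 CPM in MMI and 309.5, 368.2 and 415.3 CPM in MMI+T3. Its groups overlapped in every comparison and none was called, with a log2 fold change of 0.37 after T3 (95% interval -0.16 to 0.91, edgeR adjusted p = 0.335). MMI replicate 3 was well below the other MMI libraries, and without it MMI against CT changed from -0.10 to 0.16.

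Hsd3b7, an oxidoreductase needed early in both pathways, read at 25.5, 24.5 and 25.0 CPM in CT, 23.9, 16.7 and 30.8 CPM in MMI and 20.9, 18.9 and 15.6 CPM in MMI+T3. CT libraries were almost equal, with a coefficient of variation of 2.02%, and every MMI+T3 library was below them. MMI+T3 was below CT (log2 fold change -0.45, SE 0.12, edgeR adjusted p = 0.0240), a call lost without CT replicate 2, CT replicate 3 or MMI+T3 replicate 3 (edgeR adjusted p = 0.0576, 0.0586 and 0.0527). MMI+T3 against MMI gave -0.38 (95% interval -0.85 to 0.10, edgeR adjusted p = 0.275). Its exons overlap those of 2 other annotated genes, Gm49388 and 9430064I24Rik, and the strand setting of the counting was not given in the sources used here, so its counts are uncertain.

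Baat, which joins bile acids to taurine or glycine, read at 421.5, 443.5 and 444.3 CPM in CT, 410.3, 417.7 and 325.5 CPM in MMI and 332.6, 389.2 and 348.0 CPM in MMI+T3. CT libraries were the highest, and the MMI and MMI+T3 libraries were mixed. MMI+T3 was 1.23-fold below CT (log2 fold change -0.30, SE 0.09, edgeR adjusted p = 0.0398), but of 6 fits that each left out a library only the one without MMI+T3 replicate 2 called it. After T3 it changed by -0.12 compared to MMI (95% interval -0.45 to 0.21, edgeR adjusted p = 0.636).

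Slc27a5, the bile acid CoA ligase that acts before BAAT, read at 1421, 1372 and 1236 CPM in CT, 1178, 1113 and 771.8 CPM in MMI and 1062, 1117 and 1155 CPM in MMI+T3. Again CT libraries were above all others. No comparison was called by edgeR, with log2 fold changes of -0.39 in MMI against CT (95% interval -0.76 to -0.02, edgeR adjusted p = 0.232) and -0.29 in MMI+T3 against CT (SE 0.10, edgeR adjusted p = 0.0555), the latter called by DESeq2 (adjusted p = 0.0174) and limma-voom (adjusted p = 0.0431). T3 against MMI gave 0.11 (95% interval -0.28 to 0.50, edgeR adjusted p = 0.727).

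In MMI+T3 compared to MMI, 5 of the 10 genes rose, 1 fell and 4 were not called, where 9.83% of 14109 genes tested rose and 7.18% fell (17.0% in all). The groups did not overlap for the same 6 genes, 5 higher and 1 lower, compared to 19.1% of all genes higher and 16.2% lower (35.3% in all). The median log2 fold change of the members was 0.75, compared to -0.02 over all genes, and the 6 that changed were the 6 P450 genes. Cyp7a1 ranked 260 of 14109 by the size of its change and Cyp8b1 ranked 1539.

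In the same comparison all 10 Kupffer cell markers rose, from a sum of 91.6 to 124.3 CPM in MMI to 275.9 to 538.8 CPM in MMI+T3, with none at 0 in any library. Endothelial, stellate cell and cholangiocyte markers (8, 8 and 5 tested) had no member called by edgeR, with 1, 0 and 1 at an unadjusted p under 0.05. Of these DESeq2 called 1 cholangiocyte marker and limma-voom none. Alb, Ttr and Ahsg among the hepatocyte markers were named after their values were seen. The part of these cell markers in the values of the 10 genes was not tested.

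In MMI compared to CT, 4 of the 10 genes fell (Cyp7a1, Cyp7b1, Cyp2c70 and Cyp27a1) and none rose, also none at an unadjusted edgeR p under 0.05 or by DESeq2 or limma-voom, where 2.8% of 13925 genes fell and 2.48% rose (5.29% in all). Their median was -0.34, compared to 0.01 over all genes. Baat and Slc27a5 were also lower in every MMI than in every CT library without passing the test, which made 6 genes whose groups did not overlap, all lower. Of all genes 13.9% were without overlap and lower, and 12.3% higher (26.2% in all). Cyp8b1 ranked 12306 of 13925 by the size of its change, and Cyp7b1 ranked 223. By edgeR no Kupffer cell, stellate cell or cholangiocyte marker was called (1, 2 and 0 at an unadjusted p under 0.05, and 0, 1 and 0 by DESeq2 and none by limma-voom). Of 8 endothelial markers Lyve1 and Stab1 rose, with a median log2 fold change of 0.54 over the list, and all 8 were higher at an unadjusted p under 0.05, 4 by DESeq2 and 1 by limma-voom. Of 7 hepatocyte markers Ahsg fell. These markers were named after their values were seen, and the part of these markers was not tested.

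In MMI+T3 compared to CT, 5 genes rose (Cyp7a1, Cyp27a1, Cyp7b1, Cyp2c70 and Cyp39a1) and 3 fell (Cyp8b1, Hsd3b7 and Baat), where 13.3% of 13847 genes rose and 12.3% fell (25.6% in all). The groups did not overlap for 4 that were higher and 4 that were lower, Slc27a5 among the latter, compared to 22.4% and 19.9% of all genes (42.3% in all). The median was 0.39, compared to 0.01 over all genes. The calls of Cyp7b1, Hsd3b7 and Baat depended on single libraries, and those of Cyp7a1, Cyp8b1, Cyp27a1, Cyp2c70 and Cyp39a1 held in all 6 fits that left out a library. This comparison shares the CT libraries with MMI against CT and the MMI+T3 libraries with MMI+T3 against MMI, so the 3 sets of values are not independent. All 10 Kupffer cell markers were higher in MMI+T3 than in CT (115.6 to 144.8 CPM summed in CT), as were 5 of 8 endothelial markers. Of 8 stellate cell markers only Col3a1 was called, higher, with a list median of 0.07 on the log2 scale, and DESeq2 called none. Of 5 cholangiocyte markers only Sox9 was called, lower, whereas the list median was 0.12. Krt7, Krt19 and Spp1 had positive estimates and Epcam a negative one. Of 7 hepatocyte markers Alb, Ttr and Apoa1 were lower, with a list median of -0.22. These markers were named after their values were seen, and their part in the members' values was not tested.

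To relate Cyp8b1 to the first enzyme of the classic pathway and to the enzyme of muricholic acids, the ratio of its read counts to those of Cyp7a1 and Cyp2c70 was taken within each library, which removes the scaling between libraries. For each Cyp7a1 read there were 4.22, 4.04 and 5.79 Cyp8b1 reads in the CT libraries, 13.5, 14.5 and 10.2 reads in the MMI libraries and 0.624, 0.881 and 0.969 reads in the MMI+T3 libraries. The 3 groups were separated, and only in MMI+T3 were there fewer Cyp8b1 than Cyp7a1 reads. On the log2 scale the mean ratio fell by 3.96 from MMI to MMI+T3 (15.6-fold) and was 1.45 higher in MMI than in CT (2.73-fold). Scaled by exon length, the ratio averaged 10.03 ± 2.06 for CT, 27.3 ± 4.8 for MMI and 1.77 ± 0.38 for MMI+T3 (SD, n = 3), so that per kb Cyp8b1 remained the more abundant.

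For each Cyp2c70 read there were 0.968, 0.573 and 0.705 Cyp8b1 reads in the CT libraries, 1.30, 0.876 and 1.49 reads in the MMI libraries and 0.0779, 0.117 and 0.161 reads in the MMI+T3 libraries. The MMI+T3 libraries were well below the others, whereas CT and MMI overlapped. The log2 ratio fell by 3.40 from MMI to MMI+T3 (10.5-fold) and was 2.69 lower in MMI+T3 than in CT (6.45-fold). Of 6 comparisons of these ratios, 5 had groups that did not overlap, each with p = 0.1 by an exact two-sided permutation test, the smallest p that 3 against 3 libraries allow, and 0.12 after Benjamini-Hochberg adjustment over the 6. The other one, Cyp8b1 to Cyp2c70 in MMI against CT, differed by 0.71 on the log2 scale (exact permutation p = 0.2). All ratios kept their direction when any single library was left out, which for groups without overlap follows from their separation.

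**Figure D3:**
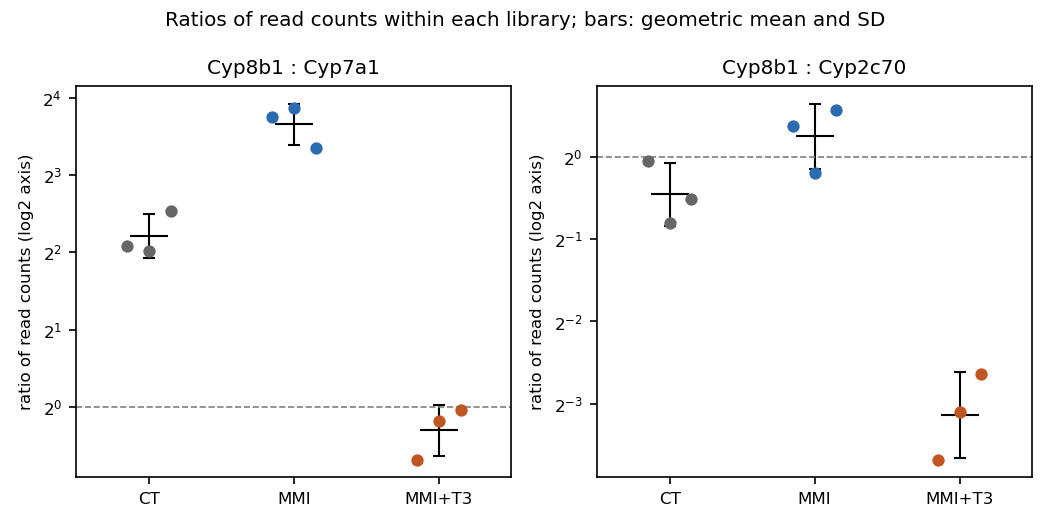
Ratio of Cyp8b1 read counts to Cyp7a1 (left) and Cyp2c70 (right) read counts in each library, on a log2 axis, with the geometric mean and SD of each group and a dashed line where both genes have equal counts. All MMI+T3 libraries lie below the line in both panels, from 0.624 to 0.969 on the left and from 0.0779 to 0.161 on the right, and the MMI libraries lie highest on the left, from 10.2 to 14.5.

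Levels between genes were compared as CPM per kb of exon. In CT the order was Slc27a5 (550.9), Cyp2c70 (335.4), Cyp27a1 (323.2), Cyp8b1 (245.7), Baat (224.9), Cyp7b1 (114.9), Akr1d1 (104.2), Cyp7a1 (25.0), Hsd3b7 (9.03) and Cyp39a1 (5.11 CPM per kb). Only Cyp2c70 with Cyp27a1 and Cyp7b1 with Akr1d1 were neighbours whose libraries overlapped. In MMI Slc27a5 was again first (418.7). Cyp8b1 was second with 237.2 CPM per kb, near its CT level, whereas the means of Cyp27a1 (210.2) and Cyp2c70 (195.1) were lower than in CT. The MMI libraries of Cyp8b1 overlapped with those of Cyp27a1, Baat and Cyp2c70. Cyp27a1, Baat and Cyp2c70 overlapped likewise, each with the next, as did Cyp7a1, Hsd3b7 and Cyp39a1 at the low end. In MMI+T3 Cyp2c70 was first with 959.8 CPM per kb, above every library of the next gene, Cyp27a1 (465.0), and Cyp8b1 was seventh with 113.7 CPM per kb, overlapping with Akr1d1 above it. Cyp27a1 with Slc27a5 and Cyp7b1 with Baat were the other neighbours that overlapped there. By this scale Cyp2c70 ranked 55 of 17144 genes in MMI+T3, compared to 269 in MMI, and Cyp7a1 ranked 852 compared to 4140.

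The makeup of the summed P450 levels changed with the groups. Together the 6 genes came to 1049 ± 83.0 CPM per kb for CT, 687.2 ± 68.0 for MMI and 1828 ± 26.5 for MMI+T3 (SD, n = 3). Cyp8b1 took 20.5% to 26.7% of this sum in CT libraries, 29.4% to 37.4% in MMI libraries and only 4.36% to 8.12% after T3. For Cyp2c70 the share was 27.1% to 35.2% in CT libraries, 24.8% to 33.1% in MMI libraries, and it reached 49.7% to 55.2% after T3. The shares of Cyp8b1 did not overlap between any groups, and for Cyp2c70 only MMI+T3 was apart. Cyp27a1 held a mean of 30.9%, 30.7% and 25.5% in CT, MMI and MMI+T3, and Cyp7a1 took at most 3.91% of the sum in any library.

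**Figure D4:**
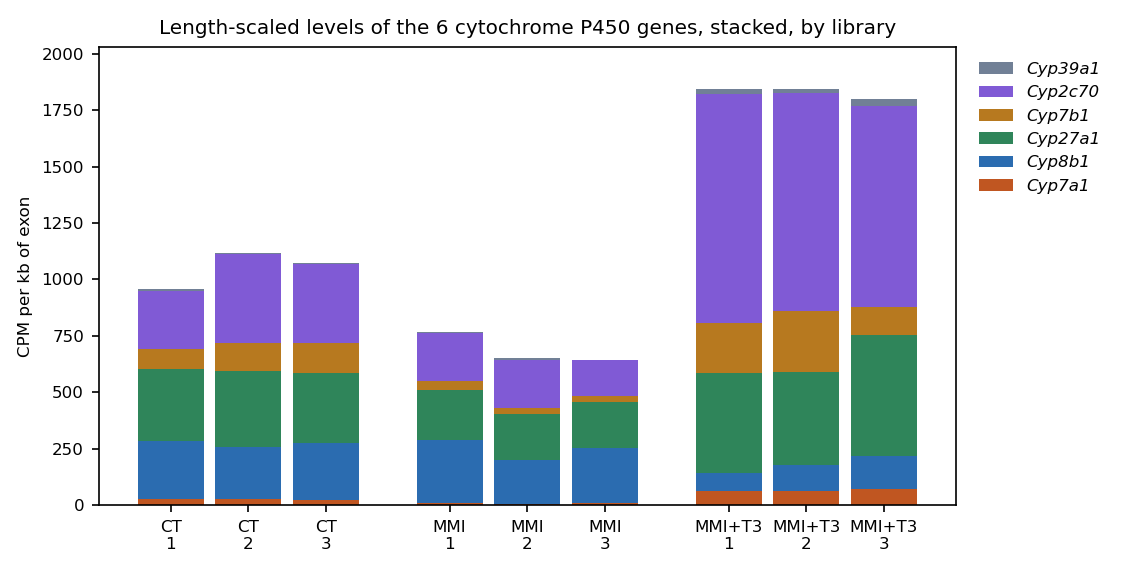
Stacked CPM per kb of exon (y axis) of the 6 cytochrome P450 genes in each of the 9 libraries (x axis, by group and replicate), with 1 colour for each gene. The MMI+T3 bars are the tallest, 1798 to 1845 CPM per kb, and Cyp2c70 makes up about 50% of them, whereas the blue Cyp8b1 part is thinner than in CT and MMI.

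Other enzymes of the pathway moved in both directions. Of 15 further bile acid synthesis genes tested, 3 rose and 3 fell in MMI+T3 compared to MMI (all genes: 9.83% and 7.18%). The median of the 15 was -0.22 on the log2 scale. Those that rose were Abcd3, the peroxisomal carrier of bile acid intermediates (log2 fold change 1.03, edgeR adjusted p = 0.00100), Cyp2a12, which in mice hydroxylates secondary bile acids (0.96, edgeR adjusted p = 0.00128), and Acnat1, related to Baat (0.55, edgeR adjusted p = 0.0479). Those that fell were Cyp3a11, a drug and bile acid hydroxylase (-1.58, edgeR adjusted p = 0.000106), Acox2, the oxidase that starts side chain shortening (-0.90, edgeR adjusted p = 0.00661), and Slc27a2, an acyl-CoA synthetase (-0.69, edgeR adjusted p = 0.00734). Acnat1 and Slc27a2 were named after their values were seen. Cyp3a11, Cyp2a12, Acnat1 and Acnat2 have close paralogs, and reads shared with these could shift their counts.

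In MMI compared to CT, 1 of the 15 rose and 3 fell (all genes: 2.48% and 2.8%), with a median of -0.27. Acnat2 rose (log2 fold change 1.29, edgeR adjusted p = 0.00368), and Abcd3, Amacr, the racemase of side chain intermediates, and Scp2, the peroxisomal thiolase and sterol carrier, fell by 0.76, 0.73 and 0.68 on the log2 scale (edgeR adjusted p = 0.0108, 0.0109 and 0.0363). In MMI+T3 compared to CT, 2 rose and 8 fell (all genes: 13.3% and 12.3%), with a median of -0.52. Cyp3a11 and Slc27a2 fell by 1.88 and 1.08 (edgeR adjusted p = 9.35e-07 and 0.000193), Hsd17b4, which acts in peroxisomal side chain shortening, fell by 0.67 (edgeR adjusted p = 0.000452), and Acnat2 rose by 1.85 (edgeR adjusted p = 0.000167). Cyp2a12 was the other gene that rose, named after its values were seen, at 0.48 on the log2 scale (edgeR adjusted p = 0.00383).

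Of 17 genes known to regulate bile acid synthesis, none was called higher by edgeR in any comparison. Those called lower numbered 2 in MMI+T3 against MMI, 1 in MMI against CT and 4 in MMI+T3 against CT. Of all genes tested 7.18%, 2.8% and 12.3% were lower and 9.83%, 2.48% and 13.3% higher. With counts this small, the 17 are not read as differing from all genes. At an unadjusted p under 0.05, 2 were higher in MMI+T3 against MMI, 0 in MMI against CT and 2 in MMI+T3 against CT, DESeq2 called 1 higher in the first, and limma-voom none. In MMI+T3 compared to MMI, Nr0b2, which encodes SHP, a repressor of Cyp7a1 and Cyp8b1, fell from 84.99 ± 9.33 to 42.5 ± 5.5 CPM (log2 fold change -1.01, edgeR adjusted p = 0.000607). Nr5a2, which encodes LRH-1, an activator of Cyp8b1, fell from 83.7 ± 17.7 to 53.4 ± 1.3 CPM (log2 fold change -0.66, edgeR adjusted p = 0.0153). In MMI compared to CT only Ppargc1a, a coactivator, changed and fell by 0.79 on the log2 scale (edgeR adjusted p = 0.0418). In MMI+T3 compared to CT, Nr0b2 and Nr5a2 fell by 1.21 and 0.90 (edgeR adjusted p = 7.57e-05 and 8.84e-05), and Thrb, the thyroid hormone receptor, and Nr1i2, which encodes PXR, each fell by 0.45 (edgeR adjusted p = 0.0127 and 0.0182).

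Several members are known to follow the clock and the lobule's zones, and the time of day of each liver was not given in the sources used here. Of 15 circadian clock genes, Per3 rose in MMI+T3 compared to MMI and Nfil3, Bhlhe41 and Nr1d1 fell. Per1 rose in MMI compared to CT, and in MMI+T3 compared to CT (14 tested) Per3 and Ciart rose and Nfil3, Nr1d1 and Npas2 fell. Of all genes tested 17.0% were called in MMI+T3 against MMI (9.83% higher, 7.18% lower). The shares were 5.29% in MMI against CT and 25.6% in MMI+T3 against CT. The 10 pericentral genes summed to 9280 to 10070 CPM in CT, 8790 to 10260 in MMI and 4670 to 4871 in MMI+T3. Glul, Lect2 and Lgr5 rose and Oat, Cyp2e1, Cyp1a2 and Slc1a2 fell after T3 compared to MMI, with a list median of -0.17 on the log2 scale. Cyp2e1 (from a mean of 4764 to 1510 CPM) carried most of the fall of the sum. The 10 periportal genes summed to 13090 to 15970 CPM in CT, 9169 to 12180 in MMI and 10840 to 12640 in MMI+T3. Of these Cdh1 and Cyp2f2 rose and Hsd17b13 and Hal fell after T3 compared to MMI, with a list median of 0.21. These genes were named after their values were seen, and the part of the clock and of zonation in the members' values was not tested.

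The genes whose values over the 9 libraries were most like those of a member were sought among 9588 genes with a mean of at least 5 CPM, by the root mean square difference of log2 CPM, each gene centred on its own mean. For Cyp8b1 they included Arl4a (0.19), Cyp2d22 (0.20), Bok (0.23) and Gnpda1 (0.23 log2 units), compared to a median of 0.61 over all genes. Cyp2d22, for example, had means of 444.8, 465.1 and 230.6 CPM in CT, MMI and MMI+T3. For Cyp7a1 the nearest were Tlcd2 (0.26), Sort1 (0.27), Slc23a1 (0.31), Trim7 (0.33) and Upp2 (0.35), and for Cyp2c70 Idh3a (0.19), Slc41a1 (0.21), Ces2c (0.22), Gramd1c (0.22) and Acacb (0.23). Since they were chosen for likeness over these same libraries, the genes nearest to Cyp7a1 and Cyp2c70 repeat the order of those members, lowest in MMI and highest in MMI+T3. Examples are 184.3, 49.97 and 394.5 CPM in CT, MMI and MMI+T3 for Tlcd2 and 45.7, 28.5 and 152.1 CPM for Idh3a. Among the members themselves Baat and Slc27a5 were the closest pair (0.15 log2 units) and Cyp8b1 and Cyp39a1 the farthest (1.77).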

How the data were processed

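Raw gene-level read counts were deposited by the authors without normalization, MMI and MMI+T3 in one table (17758 genes) and CT in a separate one (17477 genes), and both tables had been filtered on low sums. The study's methods name stranded mRNA libraries, trimming, STAR and HTSeq, whereas the processing notes of the submitters list GRCm38, HTSeq 0.6.1p1 and HISAT2 2.1.0, so which aligner made the counts was not settled. How HTSeq handled strand and multiply mapped reads was not given in the sources used here. Groups and replicate numbers came from the sample labels.

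The 6 libraries of a comparison were fitted alone in edgeR 4.0.16 (R 4.3.3), with TMM scaling, the default filter (minimum count 10) and the quasi-likelihood test, adjusted by Benjamini-Hochberg over all genes tested at 0.05. CPM were scaled over all 9 libraries. All 10 members passed the filter in each comparison, their lowest count in a library being 85. Exon lengths, the union of annotated exons, came from GENCODE M21. Replicates differed by more than sampling noise (chi-square per degree of freedom 13.2 to 58.3), so none was merged. The procedure was run on counts simulated from the spread that edgeR itself had fitted, which checks the code and does not measure error rates in these data. Same-numbered libraries did not deviate together (correlations -0.068 to 0.164), and no block was used.

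Named were all members, up to 4 called genes of the other synthesis and the regulator lists per comparison with the smallest adjusted p, the 5 genes most like Cyp8b1, Cyp7a1 and Cyp2c70 (predicted genes left out) and Dio1, except for an item that is not reported here. Members and lists were chosen with earlier results of these data known. Alternatives were other scalings, filters and tests (DESeq2 1.42.0, limma-voom 3.58.1, a 1.5-fold test), a fit of all 9 libraries, a replicate block and leaving out each library.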

Additional observations from a re-analysis of the deposited data

How the results depend on the processing

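Of the members' log2 fold changes under alternatives, 440 kept direction and side of the threshold, 30 lost the call, 2 gained it and 8 turned sign. All 54 ratio values stayed within 1 SD, but for most of them this was fixed in advance. Pairing by number returns the same mean difference, and leaving out 1 of 3 libraries cannot move it by 1 SD. Only adding 10 to each count and taking the ratio of summed counts could have moved a ratio further. A test for a change over 1.5-fold called 614 genes higher and 365 lower in MMI+T3 against MMI, 118 and 105 in MMI against CT, and 562 and 389 in MMI+T3 against CT. It left 0 members lower in the first, 2 lower in the second and 3 higher and 1 lower in the third. DESeq2 called 524 genes higher and 630 lower in MMI against CT. Members lower in MMI+T3 against CT numbered 1 with library totals and 1 in the fit of all 9 libraries. Leaving out each library in turn gave 658 to 1103 genes lower in MMI+T3 against MMI, 155 to 347 higher and 186 to 441 lower in MMI against CT, 2 to 4 members lower in MMI against CT (2 without CT replicate 2 or 3) and 1 to 3 lower in MMI+T3 against CT (1 without CT replicate 2, CT replicate 3 or MMI+T3 replicate 3). Values that turned sign were never called. Over the fits that left out a library, Slc27a5 in MMI+T3 against MMI ran from -0.050 to 0.23, and in MMI against CT Cyp8b1 ran from -0.18 to 0.085, Hsd3b7 from -0.30 to 0.13, Akr1d1 from -0.27 to 0.16 and Cyp39a1 from -0.87 to 0.098. With library totals Cyp8b1, Hsd3b7 and Akr1d1 were 0.087, 0.072 and 0.015 in MMI against CT. Library totals moved the median of all genes to 0.15 in MMI against CT, with 66.4% of calls higher in place of 47.0%, and to 0.12 in MMI+T3 against CT, with 68.9% in place of 52.0%. The cause of these shifts was not tested. With the replicate number as a block, pairing libraries by number, 1462 genes were higher and 1068 lower in MMI+T3 against MMI, 475 and 509 in MMI against CT and 1958 and 1801 in MMI+T3 against CT, and the members' counts stayed at 5 and 1, 0 and 4, and 5 and 3. Not every library correlated best with its own number. A gene not called is not shown to be unchanged.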
